A study of Mus musculus with 44 samples.

Results

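The regions described here are stretches of H3K27me3 in mouse haematopoietic progenitor cells that meet exactly 1 RING1B peak and no PCGF1 peak. They were chosen by overlap of 3 deposited peak lists: a region had to share at least 1 bp with 1 peak of the RING1B list, with no second one, and no base with any peak of the PCGF1 list. Of the 135391 regions of the H3K27me3 list, 4824 met this rule (3.56%, 3.46 to 3.66). The rest were 127732 regions with neither protein, 2004 with several RING1B peaks and no PCGF1, 710 with RING1B and PCGF1, and 121 with PCGF1 but no RING1B. The overlaps that chose the regions are not findings. Intervals given with shares are exact 95% binomial (Clopper-Pearson) intervals. They cover counting error only, and neighbouring regions are not independent.

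H3K27me3 is the trimethyl mark that Polycomb repressive complex 2 places on histone H3 at silent genes. RING1B is the ubiquitin ligase of Polycomb repressive complex 1, which modifies histone H2A. That complex comes in canonical forms, whose CBX subunits can bind H3K27me3, and in variant forms, one of which is defined by the subunit PCGF1 and can be brought to unmethylated CpG islands by its partner KDM2B. Polycomb marks are known in blood progenitors for holding lineage and developmental genes silent. A region with the mark and RING1B but no PCGF1 peak is therefore a place where the mark and the ligase were listed together, with no listed PCGF1 on the region itself. PCGF1 can still lie nearby or on the same RING1B peak.

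All 3 lists came from IdHP cells, progenitors from bone marrow of B6CBAF1/J mice, kept on TSt4 stroma cells in medium with Fl3L, IL7 and SCF, and used at passages 15 to 18. H3K27me3 and RING1B were precipitated from Pcgf1 fl/fl cells, with 2 libraries each. PCGF1 was precipitated by its FLAG tag from Pcgf1 -/- cells that carried FLAG-PCGF1, also with 2 libraries, so that absence of PCGF1 refers to another cell population than the mark and RING1B, and to a list of 2569 peaks. The labels do not say which promoter drives FLAG-PCGF1, nor whether the 2 libraries of a list came from separate cultures. A list gives 1 set of values for its 2 libraries, so no value has a replicate error, read depth is unknown, no test over samples could be made, and the differences below are descriptions of these lists. The identity of the cells could not be checked against marker genes, because positions were not assigned to genes. The labels also describe 38 other libraries, which were not analysed here.

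Single regions show how different the members are. Positions are in build mm9. The tallest region lay on chromosome 9, 88445110 to 88448240. Its H3K27me3 height, the peak of the signal within it on a scale that the sources used here do not give, was 6010. Its RING1B peak was only 287 bp wide, crossed the right border of the region and had a fold of 4.96 over the caller's background. The second tallest, chromosome 5, 114622870 to 114626500, reached 3552 and held wholly inside it a RING1B peak 286 bp wide with a fold of 5.57. The third, chromosome 17, 4625170 to 4626680, reached 3323 and had the highest RING1B fold of all members, 25.7, in a peak of 634 bp. Among the 10 tallest members, 8 had a short RING1B peak, of up to 500 bp, against 932 of all 4824 members. These heights are extreme, since 95% of members had a height of up to 164. Copy number and repeat content were not tested at these sites.

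The members with the highest RING1B fold looked different. Of the 10 with the highest fold, which rested on 8 RING1B peaks, 9 carried a RING1B peak wider than 5 kb. Of all 4824 members, 581 had a RING1B peak of 5 to 10 kb and 457 a wider one. In 1 of the 10 the height was 400 or more, against 0.601% of all members. The median height of the 10 was 111, against 93.0 in all members. On chromosome 9, 89776590 to 89781810, a RING1B peak of 5299 bp and fold 14.8 met a region of height 58.3, which is below the median of the whole H3K27me3 list (68.5). On chromosome 6, 51117640 to 51151540, a RING1B peak of 16622 bp and fold 11.7 lay wholly inside a region of 33900 bp and height 174, and the nearest PCGF1 peak was 268 kb away. It was the only 1 of the 10 with its RING1B peak wholly inside the region. On chromosome 4, 8577030 to 8581410, the fold was 12.1 and the height 100.5, with PCGF1 no closer than 1014 kb.

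At 5 of these 10 members, the RING1B peak did hold PCGF1, but outside the region. Among all members this was so at 154 of 4824 (3.19%). Members that share a RING1B peak are counted separately here. One RING1B peak of 33668 bp and fold 14.2 on chromosome 4 ran across the members 3832650 to 3838090 and 3839910 to 3858130 and held 4 PCGF1 peaks, none of them on either member. A second such peak on chromosome 4, 25015 bp wide with a fold of 11.5, crossed the members 117146040 to 117151160 and 117153790 to 117155070, and also held 4 PCGF1 peaks. On chromosome 10, 98371370 to 98372820 shared 317 bp with a RING1B peak of 6194 bp and fold 14.7 that held 1 PCGF1 peak, 4.58 kb from the region.

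The 10 widest members ran from 80820 to 121380 bp and each held its RING1B peak wholly inside. Chromosome 1, 134743280 to 134864660, was the widest and held a RING1B peak of 165 bp. Chromosome 2, 168291210 to 168391430, was 100220 bp wide and had a height of 211, with a RING1B peak of 1612 bp and fold 6.45. Over all 10 the RING1B peaks were 165 to 3144 bp wide, and the heights, 128 to 211, all lay above the median of the members.

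Members stood between regions without either protein and regions with more of them, in width and in height. Their median width was 4290 bp (interquartile range 2040 to 8860), against 1750 bp (1180 to 3230) in regions with neither protein and 11910 bp (6360 to 21972.5) in regions with several RING1B peaks. A wide region has more chance of meeting a peak, and the share of regions that were members rose with width, from 1.41% (1.31 to 1.51) of regions up to 1500 bp to 13.8% (12.5 to 15.1) of those over 20000 bp. Members made up 3.56% of the regions and 7.53% of the bases that the list covers, 36.4 Mb. The median height was 93.0 (74.3 to 115) in members, 67.4 (56.3 to 82.4) in regions with neither, 117 (95.4 to 143) with several RING1B peaks, and 159 (125 to 195) with RING1B and PCGF1. The distributions overlapped widely. The part of a region above the caller's cutoff had a median of 630 bp in members and 200 bp in regions with neither, and the -log10 p of the height had medians of 73.7 and 45.6.

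**Figure D1:**
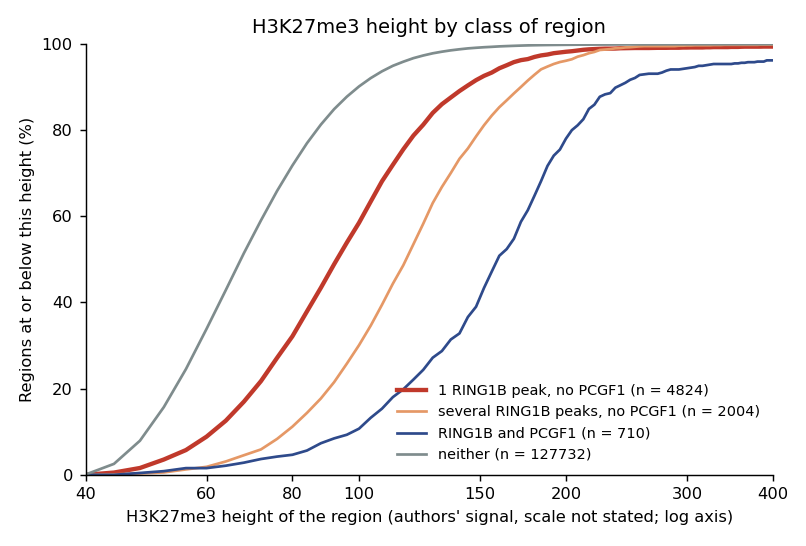
Cumulative share of regions (vertical axis, %) at or below each H3K27me3 height (horizontal axis, the authors' signal on a log axis, shown up to 400), for 4 classes of region. The curve of the 4824 members (median 93.0) lies to the right of the regions with neither protein (67.4). It lies to the left of the regions with RING1B and PCGF1 (159). Up to a height of 232 it also lies to the left of the regions with several RING1B peaks (117), and from 236 to their right.

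Median height rose with width in members and in regions with neither protein, so members were also compared with other regions of like width. In each of 6 width classes the median height of members was above that of regions with neither protein, by 1.13 to 1.18 times. Among regions of up to 1500 bp the medians were 70.4 and 59.4. Among regions of 5000 to 10000 bp they were 100.2 (85.9 to 117) and 86.7 (75.6 to 100.6), and among those over 20000 bp 138 (120 to 158) and 122 (108 to 143). The interquartile ranges overlapped in all 6 classes. Within a class members were still somewhat wider, with medians of 6930 and 6540 bp in the 5000 to 10000 bp class. Regions with several RING1B peaks had medians of 1.17 to 1.22 times those of regions with neither, close to the members, whereas regions with RING1B and PCGF1 had medians of 1.44 to 2.55 times.

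**Figure D2:**
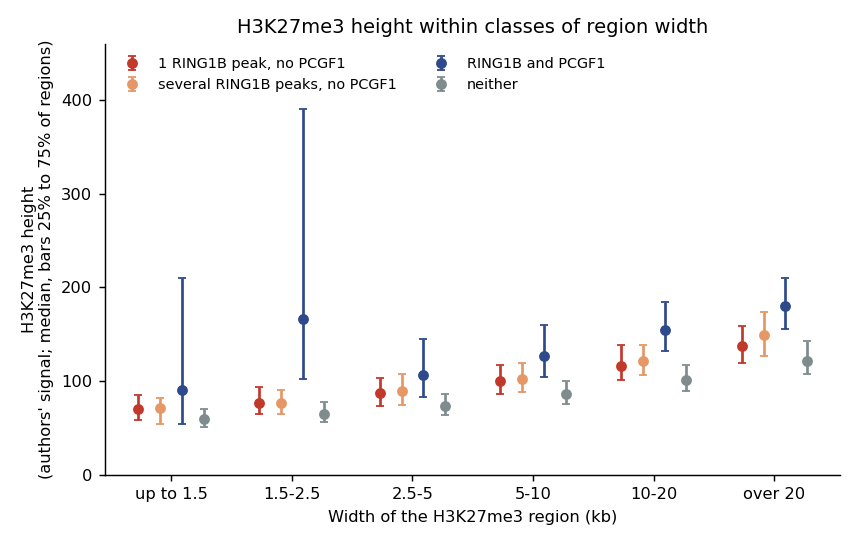
Median H3K27me3 height (points, the authors' signal) with the range from 25% to 75% of regions (bars), for 4 classes of region within 6 classes of region width in kb. In each width class members (red) lie above regions with neither protein (grey), by 1.13 to 1.18 times, with overlapping bars, and below regions with RING1B and PCGF1 (blue).

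The single RING1B peak lay on the region in 1 of 3 ways. It was wholly inside in 2098 members (43.5%, 42.1 to 44.9), crossed 1 border in 2011 (41.7%, 40.3 to 43.1), and reached over the whole region in 715 (14.8%, 13.8 to 15.9). The share wholly inside depended on the setting: it was 20.5% with only RING1B peaks of a -log10 q (significance as deposited) of 5 or more, and 70.8% with 50% of the peak required in the region, which raises it by construction. The 3 arrangements differed in the size of both partners. With RING1B inside, the region had a median width of 7730 bp (4092 to 14432) and a median height of 103, and the RING1B peak was 684 bp wide (375 to 1365) and covered 10.3% of the region. With RING1B across a border, the medians were 3140 bp for the region, 86.4 for its height and 2064 bp for the RING1B peak, of which 38.8% lay in the region. With RING1B over the whole region, the region was 1940 bp wide and the RING1B peak 9357 bp, so that the region took up a median of 24.96% of the peak. Geometry sets part of this, since a peak can lie inside only a region wider than itself.

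The arrangement followed the width of the RING1B peak. Peaks of up to 500 bp lay wholly inside the region in 78.9% (76.1 to 81.4) of 932 members, peaks of 1000 to 2000 bp in 47.1% (43.7 to 50.5) of 849, and peaks wider than 10000 bp in 4 of 457. Peaks wider than 10000 bp reached over the whole region in 72.6% (68.3 to 76.7). Inside the region the peak showed no marked preference for the edge or the middle. With the room left for the peak divided into 5 equal steps from border to centre, the 5 steps held 18.8%, 18.5%, 21.7%, 19.3% and 21.7% of the 2098 peaks. In the 799 such members over 10000 bp the outermost step held 18.8% (16.1 to 21.7) and the innermost 21.8% (19.0 to 24.8).

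**Figure D3:**
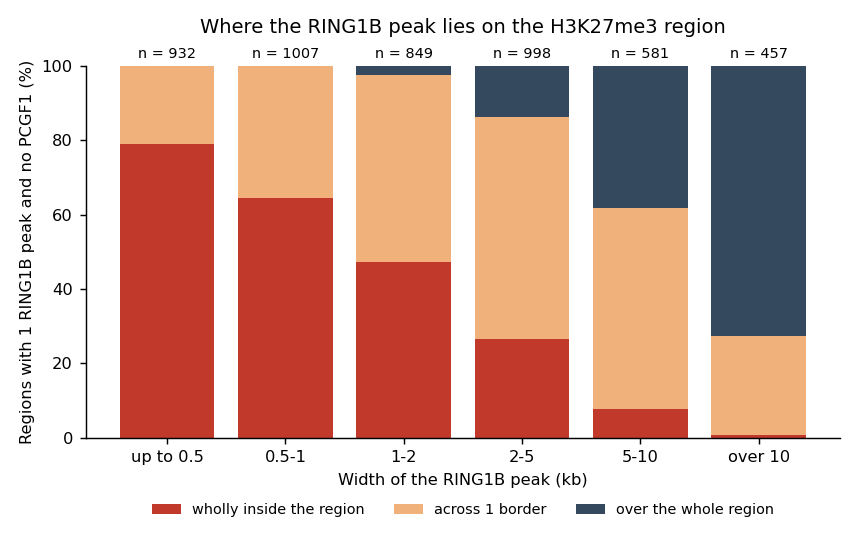
Share of members (vertical axis, %) whose RING1B peak lay wholly inside the region, across 1 border, or over the whole region, for 6 classes of RING1B peak width in kb, with the number of members above each bar. The share wholly inside goes from 78.9% for peaks of up to 0.5 kb to 4 of 457 members for peaks over 10 kb.

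The 4824 members rested on 4503 RING1B peaks. On those peaks the median fold was 3.24 (interquartile range 3.03 to 3.63), against 3.25 (3.03 to 3.62) on the 13906 RING1B peaks outside H3K27me3. It was 3.16 (3.01 to 3.38) on the 5225 peaks of regions with several that lay on no member. Peaks on both kinds of region were counted with the members only. Peak width differed more: the median was 1300 bp on members, 594.5 bp outside H3K27me3 and 1009 bp on the peaks of regions with several. A wide peak has more chance of touching a region, so the choice by overlap favours wide peaks on regions. How much of the difference this makes was not tested. At a given width the fold on members was the lower one up to 5000 bp, with 3.05 against 3.17 in peaks up to 500 bp and 3.18 against 3.35 in peaks of 1000 to 2000 bp. In peaks of 5000 to 10000 bp the medians were 3.84 and 3.87, and over 10000 bp 4.29 in 267 peaks on members and 3.99 in 15 outside H3K27me3. A -log10 q of at least 5 was reached by 512 peaks on members (11.4%, 10.5 to 12.3), where 9.96% of all RING1B peaks did so. A fold of at least 5 was reached by 230 (5.11%, 4.48 to 5.79), where the share over the RING1B list was 3.73%. These peaks were also wider than the list's, and these shares are not at matched width.

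Over the members as a whole, a high RING1B fold did not go with a tall H3K27me3 region. Spearman's rho between them was 0.015 over 4824 regions, given as a description, since regions share their libraries and some share a RING1B peak. Within the 3 arrangements it was 0.11 with RING1B inside, 0.13 across a border and 0.26 over the whole region. Height followed the width of the region (rho 0.62) and fold the width of the RING1B peak (rho 0.66). In the 25% of members with the lowest fold the median height was 93.8 and the RING1B peak lay inside in 68.5% (65.8 to 71.1). In the 25% with the highest fold, from 3.70 to 25.7, the median height was 96.5 and the peak lay inside in 18.1% (15.9 to 20.4).

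**Figure D4:**
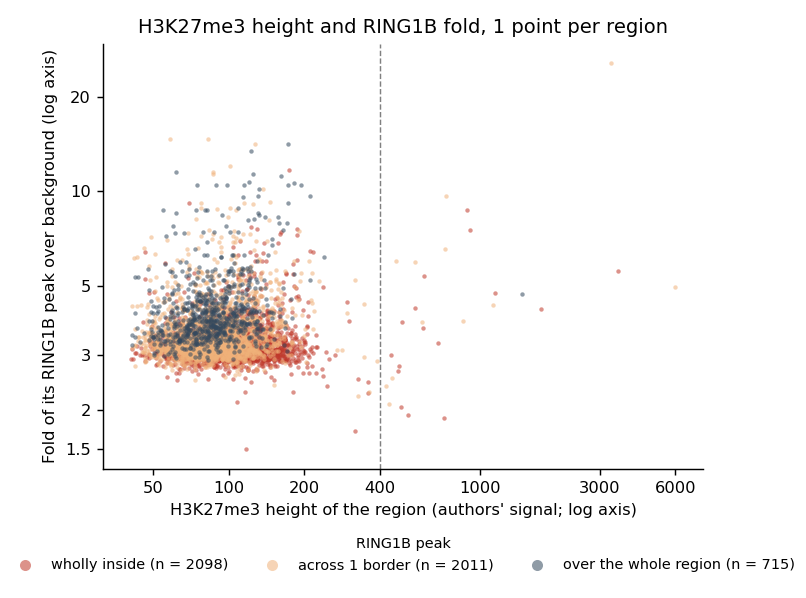
H3K27me3 height (horizontal axis, authors' signal) against the fold of the RING1B peak over background (vertical axis), both on log axes, with 1 point per member coloured by arrangement. The cloud shows no slope (rho 0.015), and 29 members stand to the right of the dashed line at a height of 400.

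A few members were very tall. There were 29 members of height 400 or more (0.601%, 0.403 to 0.862), where 0.0768% of all H3K27me3 regions were that tall. The share was higher in regions with RING1B and PCGF1, 27 of 710 (3.80%, 2.52 to 5.48), and lower in regions with several RING1B peaks, 2 of 2004, and with neither protein, 45 of 127732. Their RING1B peak was up to 500 bp wide in 20 of 29 (69.0%, 49.2 to 84.7), against 19.0% (17.9 to 20.2) of the other members, and its median width was 287 bp against 1487 bp. The median fold was 4.21 against 3.27, and the regions themselves were shorter, with medians of 2620 and 4310 bp. Of the 10 members that ranked highest in height and fold together, 7 were of this height and 6 had a RING1B peak of up to 500 bp. Ranking by height favours tall members, so the count of 7 follows in part from the choice. Chromosome 1, 12632460 to 12635010, reached a height of 731 under a RING1B fold of 9.67 in 301 bp. Chromosome 2, 60239800 to 60242420, reached 884, with a fold of 8.73 in 307 bp. On X, 119944920 to 119947280 reached 465, with a fold of 5.98 in 282 bp. Copy number and repeat content of these sites were not tested.

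Neighbouring members often shared 1 RING1B peak. There were 268 RING1B peaks with 2 to 7 members each, which took in 589 members (12.2%, 11.3 to 13.2). Counting other H3K27me3 regions too, 872 members (18.1%, 17.0 to 19.2) had a RING1B peak that also lay on another region. A peak on 2 regions has to span the gap between them, which makes shared peaks wide and the gaps under them short. The shared peaks had a median width of 10638.5 bp against 1181 bp for peaks on 1 member, and had a median fold of 3.97 against 3.21. The H3K27me3 gap between 2 neighbouring members under 1 RING1B peak had a median of 2150 bp (1750 to 2860). Gaps between all neighbouring regions of the list had a median of 6050 bp, and the shortest in the list was 1510 bp, so regions closer than that never stand as separate entries. The taller of 2 such neighbours was 1.28 times as high as the other (median of 317 gaps). On chromosome 11, 18769680 to 18772580 was 1 of 6 members under a single RING1B peak of 33850 bp and fold 10.5 that held no PCGF1.

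PCGF1 was absent from the members by the rule, though not always from their RING1B peak or their neighbourhood. A RING1B peak that held PCGF1 outside the region was present at 154 members (3.19%, 2.71 to 3.73). It was found at 69 of 715 members covered whole by RING1B (9.65%, 7.59 to 12.1) and at 85 of 2011 with RING1B across a border (4.23%, 3.39 to 5.20). With RING1B wholly inside the region it cannot occur. Over the whole RING1B list 5.85% of peaks held PCGF1, but the rule removed those whose PCGF1 lay on the region, so the shares are not comparable. PCGF1 lay in 3 of the 317 gaps between neighbouring members under 1 RING1B peak (0.946%, 0.196 to 2.74). The share in other gaps of the list was not counted, so this one cannot be called low or high.

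The nearest PCGF1 peak was at a median distance of 274 kb from a member, with 8 members on sequences that carry no PCGF1 peak. A PCGF1 peak lay within 50 kb of 858 members (17.8%, 16.7 to 18.9), where 7.26% of all H3K27me3 regions had one on them or that near. The share was 19.9% (18.1 to 21.7) in regions with several RING1B peaks and 6.06% (5.93 to 6.19) in regions with neither. Within 10 kb the shares were 6.16% (5.49 to 6.87) in members, 6.34% in regions with several RING1B peaks and 0.980% in regions with neither. In the 6 width classes the share within 50 kb lay between 14.9% and 20% in members and between 5.10% and 14.7% in regions with neither. The intervals were apart in the 5 classes up to 20000 bp and overlapped in the widest (14.8 to 22.9 and 12.9 to 16.7). By arrangement it was 15.7% (14.2 to 17.3) with RING1B inside, 18.9% (17.2 to 20.7) across a border and 20.8% (17.9 to 24.0) over the whole region. Members with their own RING1B peak holding PCGF1 count in these shares; without them 15.1% of members had PCGF1 within 50 kb.

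The next H3K27me3 region was a median of 2060 bp away (1700 to 3340), against 3630 bp (2000 to 8430) for regions with neither protein. In the other classes with RING1B it was much the same as in members, 1930 bp with several RING1B peaks and 2155 bp with RING1B and PCGF1.

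Members were unevenly spread over the chromosomes. On the autosomes 3.78% (3.67 to 3.89) of H3K27me3 regions were members, from 1.96% (1.62 to 2.34) on chromosome 8 to 5.63% (4.92 to 6.40) on chromosome 19 and 5.60% (5.13 to 6.10) on chromosome 2. On X it was 1.72% (1.51 to 1.95), or 233 of 13557 regions. X was lower than the autosomes in each width class up to 20000 bp, for example 4.48% (3.40 to 5.78) against 8.53% (8.04 to 9.03) between 5000 and 10000 bp, while over 20000 bp the shares were 13.0% (7.11 to 21.2) and 13.8% (12.5 to 15.2). RING1B peaks were few there, with 4.603 per 100 H3K27me3 regions against 20.1 on the autosomes.

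Seen from RING1B, X had a higher share than any autosome. Of its 624 RING1B peaks 223 lay on a member (35.7%, 32.0 to 39.6), against 17.5% (17.1 to 18.0) on the autosomes. There the range was 12.9% on chromosome 17 to 22.0% on chromosome 3. This share depends on how many H3K27me3 regions and RING1B peaks a chromosome has, and was not adjusted for them. The share of RING1B peaks on any H3K27me3 region was also higher, 59.0% (55.0 to 62.9) on X against 43.9% (43.3 to 44.6) on the autosomes. The members of X resembled the others in height and fold, with medians of 94.7 and 3.24 against 92.9 and 3.28 on the autosomes, and the median region width was 4290 bp on both. Their RING1B peaks were narrower, with a median of 1190 bp on X against 1491.5 bp on the autosomes. RING1B reached over the whole region less often on X, in 8.15% (4.98 to 12.4) of members against 15.2% (14.2 to 16.3). These shares are not at matched RING1B peak width. Of the autosomes, 2 had a lower share than X and 2 more lay within its interval: it was 4.202% (1.38 to 9.53) on chromosome 8, 7.76% (3.61 to 14.2) on chromosome 18, 9.70% (5.27 to 16.0) on chromosome 17 and 10.2% (6.23 to 15.4) on chromosome 10.

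**Figure D5:**
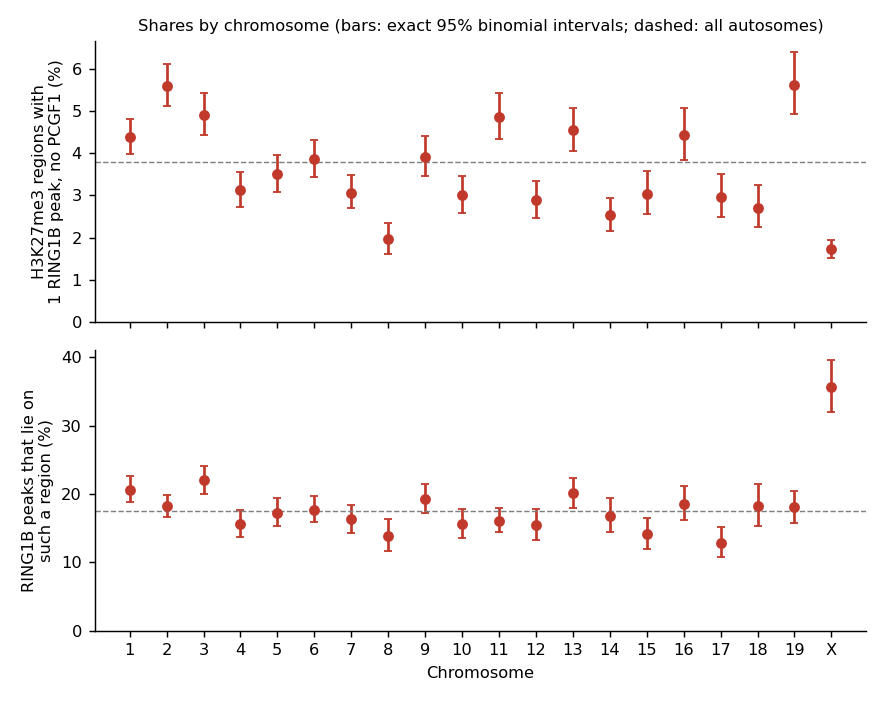
Upper panel: share of the H3K27me3 regions of each chromosome that are members (%). Lower panel: share of the RING1B peaks of each chromosome that lie on a member (%). Bars are exact 95% binomial intervals and dashed lines the values over all autosomes. X is the lowest point above (1.72%) and the highest below (35.7%).

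The members with the least overlap shared 1 bp with their RING1B peak, on chromosome 1, 123148850 to 123152490 (height 92.7, fold 3.56), and on chromosome 13, 24029550 to 24030840 (height 65.1, fold 3.14). The 90 members that shared up to 50 bp had a median height of 74.1 and a median fold of 3.11. The member closest to PCGF1 lay 56 bp from it, on chromosome 1, 44199250 to 44204680, where RING1B lay over the whole region with a fold of 4.10 and the height was 94.8. Just outside the rule stood 423 regions with exactly 1 RING1B peak that also met PCGF1. Their median height was 149 (111 to 188), their median width 10450 bp and their median RING1B fold 3.56. The one that shared the fewest bases with PCGF1, 3 bp, was on chromosome 17, 8145280 to 8148150, where the height was 156 and the RING1B fold 3.11. On the other side of the rule 1208 regions had exactly 2 RING1B peaks and no PCGF1, with a median height of 108 and a median width of 8420 bp. Their 2 RING1B peaks lay a median of 1227 bp apart, and the shortest distance between neighbouring peaks in the RING1B list was 661 bp.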

How the data were processed

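Reads were processed by the authors. The submitters' processing notes name Picard, Bowtie2 and SAMtools 1.6.0 as tools and mm9 and dm3 as builds, without their roles. Positions are read as mm9, since the H3K27me3 list reaches base 197194960 of chromosome 1. For the peaks, caller, threshold and control were not given in the sources used here. Whether 2 libraries were pooled for a list is not stated. Each H3K27me3 region has, per the file headers, a height (signal), a width above cutoff and a log p for that height. The latter is taken as -log10 p. The deposited RING1B and PCGF1 lists have the broadPeak layout: of them the fold (a ratio over background) and -log10 q were used. All are the authors' values per peak.

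Regions and peaks were placed on each other by overlap of at least 1 bp with Python 3.11.15, numpy 2.4.6, pandas 2.3.3 and scipy 1.17.1, and the overlap code was tested on simulated data. H3K27me3 positions are printed as listed, in steps of 10 bp. For overlap, all 3 lists were read as deposited, as half-open intervals, so that width is end minus start. Positions of RING1B peaks are not printed. Distances run from edge to edge. Medians have interquartile ranges, and no test was run, because each list is 1 set of values for 2 libraries. Sites were named by rule: the 10 members each with the greatest height, RING1B fold, width and joint rank of height and fold, and the 5 each with the least RING1B overlap, the nearest PCGF1, and the least PCGF1 overlap outside the rule; a few of each are printed. The members and the lists of what to describe were chosen with earlier results of these data known. There were 7 other settings tried by plan, and 3 chosen after seeing the data. Genes and sequence were not assigned, because the gene and promoter tables at hand belong to GRCm38.p6, another build.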

Additional observations from a re-analysis of the deposited data

How the results depend on the processing

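Read depth is unknown, and which regions have 1 RING1B peak depends on how the authors' caller split and joined peaks. The number of members (4824) stayed within 1.5 times in 9 of 10 settings, from 3481 to 5795, and was 982 when RING1B peaks needed a -log10 q of 5 or more. In that setting the median height was 109, the median width 5920 bp, the median RING1B fold per member 4.83, the share with RING1B wholly inside 20.5%, the share with PCGF1 within 50 kb 28.0% and the share of X regions 0.199%. With 50% of the RING1B or PCGF1 peak required in the region, they were 99.0, 6070 bp, 3.16, 70.8% inside and 1.28% of X regions. That setting raises the share inside by construction. With peaks within 1 kb counted, they were 88.4, 3620 bp, 3.26, 29.97% inside and 16.1% near PCGF1. With the taller 50% of H3K27me3 regions, they were 100.2, 5310 bp, 47.0% inside and 2.398% of X regions. Joining regions within 1 kb changed nothing, since none lie that close, so that setting is no check. Reading H3K27me3 starts as 1-based, chosen after seeing the data, also left the number and values of the members the same. Joining within 2 kb, chosen after seeing the data, gave 95.7, 6000 bp, 52.5% inside and 16.7% near PCGF1. Leaving out members whose RING1B peak holds PCGF1, also chosen after seeing the data, gave a fold of 3.26, 44.9% inside and 15.1% near PCGF1. Members were taller, wider and more often near PCGF1 than regions with neither protein in each of the 10 settings. X was below the autosomes in each of the 9 that include it. These counts, and the 9 of 10 above, include the 1 kb join and the 1-based reading, which left the members unchanged. The order of RING1B fold against peaks outside H3K27me3 was not stable. Counted once per member, it was 3.27 against 3.25 under the rule. Counted once per RING1B peak, it was 3.24 against 3.25, the other order. Per member it turned in 2 settings, to 3.16 against 3.27 with 50% overlap and 3.26 against 3.27 with peaks within 1 kb. The cause was not tested. No paired analysis was possible because each list stands for both libraries and no result comes from a test.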
